A study of Drosophila melanogaster with 4 samples.

Results

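Of the 2459 CTCF peaks listed for Drosophila melanogaster embryos, 1092 (44.4%) lay over 5000 bp from every listed H2A.V region and are called far CTCF peaks here. They were chosen by the distance from the peak midpoint to the nearest edge of an H2A.V region on the same sequence name, so that distance is described below and not tested. The 4 CTCF peaks on Uextra, which has no H2A.V region, were left out. A second set of 1195 CTCF peaks, inside a region or at most 1 kb from one, served for comparison and is called near, and the remaining 168 peaks lay between 1 and 5 kb away. At the limit itself, the closest far peak was 2L-97 (2L, 15504636 to 15504836, dm3) at 5024.5 bp, and the nearest peak left out was X-312 (X, 11214059 to 11214259) at 4976.5 bp.

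CTCF is a zinc-finger protein that binds DNA by sequence and is known in the fly as an insulator factor, a class of proteins that bind at borders between regulatory domains. H2A.V is the only histone H2A variant of the fly and is known from nucleosomes just downstream of the start of active genes, and also from heterochromatin. A CTCF peak far from H2A.V is thus a binding site in a stretch with no listed nucleosome mark of this kind, and the stretches between neighbouring H2A.V regions are called H2A.V-free gaps below.

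The chromatin came from unstaged wild-type embryos, fixed with formaldehyde and sheared, and was immunoprecipitated with antibodies to CTCF, H3 or H2A.V beside an input, giving 4 libraries with 1 per antibody. The H2A.V library bears another protein name in its title and was assigned by its antibody label. Only the peak lists of CTCF and H2A.V were analysed, drawn from 11657333 and 12260001 sequenced tags. With 1 library each there is no replicate, intervals are 95% intervals that cover counting error only, and tests compare these lists of peaks and not embryo collections. The H2A.V list holds 3229 regions with a median width of 1347 bp, and a gap means that no region passed the authors' thresholds there, not that H2A.V was absent.

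CTCF peaks were densest at H2A.V regions, and on the large arms their density was nearly level over the distance classes beyond 5 kb. On 2L, 2R, 3L and 3R together, 168.8 CTCF peaks per Mb lay inside H2A.V regions (Poisson interval 156.3 to 182) and 137 per Mb in the first 0.25 kb outside them (117.5 to 158.9). Between 0.25 and 1 kb the density was 20.2 per Mb (15.8 to 25.6), and between 1 and 5 kb it was 9.42 per Mb (7.79 to 11.3). Far peaks occurred at 12.1 per Mb between 5 and 10 kb (10.1 to 14.5), at 12.3 between 10 and 20 kb (10.6 to 14.3), and at 10.7 between 20 and 50 kb (9.44 to 12.1). They occurred at 10.6 per Mb between 50 and 100 kb (9.16 to 12.2) and at 10.8 per Mb over 100 kb away (8.71 to 13.1). The intervals of these 5 distance classes overlap one another. With the X, chromosome 4 and the heterochromatic and unplaced names included, the density was 12.3 per Mb at 10 to 20 kb (10.7 to 14.0). It was 8.37 per Mb over 100 kb away (6.97 to 9.96), and these intervals do not overlap. How much of the sequence on the heterochromatic and unplaced names could yield a listed peak was not examined.

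On the X, the same outer classes held between 9.65 and 14.0 far peaks per Mb, and each interval there overlaps that of the autosomal arms. Closer to H2A.V, the X had more CTCF peaks per Mb than the autosomal arms in each class outside regions up to 5 kb, and fewer inside regions. Over regions and the first 1 kb outside them together, near peaks occurred at 120 per Mb on the X (105 to 136). The autosomal arms had 105 per Mb there (98.7 to 112), and these intervals overlap. Inside H2A.V regions the X had 132.5 CTCF peaks per Mb (110.2 to 158) against 168.8 on the autosomal arms, with intervals that overlap slightly. The X had 285 CTCF peaks per Mb in the first 0.25 kb outside a region (227.5 to 353) against 137 on the autosomal arms. Between 0.25 and 1 kb it had 41.2 per Mb (28.2 to 58.2) against 20.2 (15.8 to 25.6). Between 1 and 5 kb it had 18.1 per Mb (13.4 to 23.9) against 9.42. In each of these classes outside regions the intervals do not overlap. These distances were looked at after the data were seen and the differences were not tested.

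**Figure D1:**
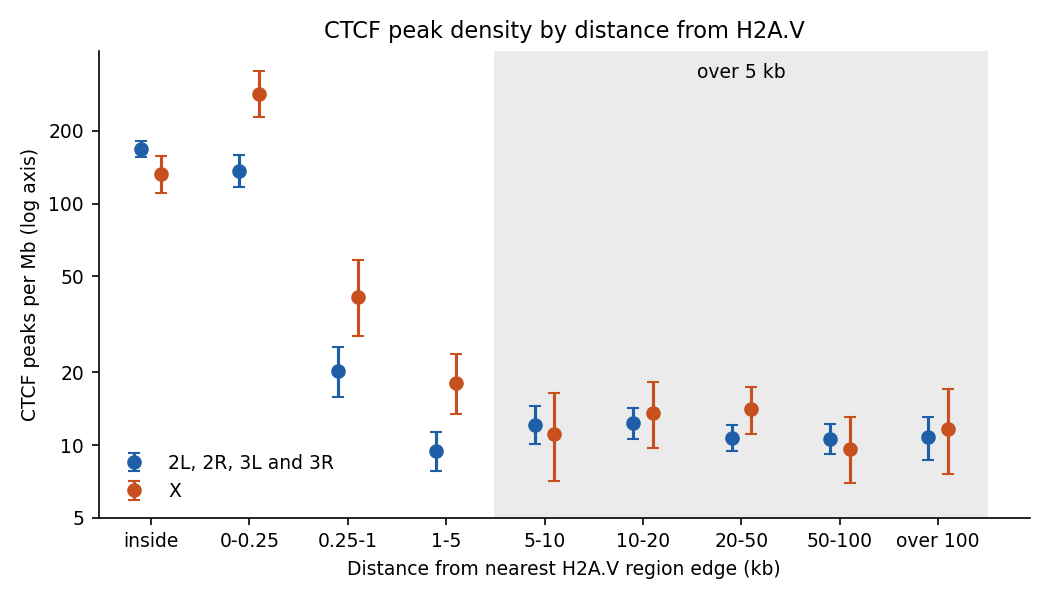
CTCF peaks per Mb of sequence (log axis) by distance in kb from the nearest H2A.V region edge, on 2L, 2R, 3L and 3R together (blue) and on X (orange). Points are counts over the sequence available at that distance, bars are 95% Poisson intervals, and the shaded classes, which hold the far peaks, all lie between 9.65 and 14.0 per Mb.

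The far peaks lay at a wide range of distances from H2A.V. Their median distance from the nearest edge was 31960.5 bp, with quartiles of 14915 and 63610 bp. Between 5 and 10 kb away lay 152 of the 1092 (13.9%), while 719 (65.8%) lay over 20 kb, 376 (34.4%) over 50 kb and 139 (12.7%) over 100 kb away. Of the 99.3 Mb of gap sequence over 5000 bp from H2A.V, 12.7 Mb lay 5 to 10 kb away and 15.1 Mb over 100 kb away. The peak shares above also count the 17 far peaks beyond the first or last H2A.V region, which this sequence leaves out. Within these gaps, 151 of 1075 far peaks lay 5 to 10 kb away, or 11.9 per Mb (10.1 to 14.0). Over 100 kb away lay 126, or 8.37 per Mb (6.97 to 9.96). On the 5 large arms alone, the densities were 11.9 per Mb (10.1 to 14.0) and 10.9 per Mb (9.08 to 13.0). The 5 farthest of all lay on U, a name that joins unplaced sequence, so their distances of up to 5690452 bp are not distances along a chromosome arm. Among the named arms, the farthest was 2L-3 (2L, 14706301 to 14706501), which stood 299184 bp from the nearest H2A.V edge and was line 20 of the deposited list. The next were 2R-26 (2R, 15885039 to 15885239) at 247352.5 bp, X-5 (X, 20631501 to 20631701) at 235585.5 bp, 2L-487 (2L, 16026802 to 16027002) at 230149.5 bp and 2L-25 (2L, 17734735 to 17734935) at 228585.5 bp. The restriction to named arms was made after the values were seen.

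The H2A.V regions left 3217 gaps between neighbours, and 1498 of these (46.6%) were over 10 kb long, the length a gap must exceed to hold a far peak. A far peak was found in 539 of the 1498 (36.0%, Wilson interval 33.6 to 38.4%). The gaps with a far peak had a median length of 107777 bp (quartiles 56887 and 193304 bp), and the 959 without one a median of 24418 bp. Together the gaps over 10 kb had 99.3 Mb of sequence over 5000 bp from both edges, here called usable, and this held 1075 far peaks, or 10.8 per Mb (10.2 to 11.5). The remaining 17 far peaks lay beyond the first or last H2A.V region of a sequence name, 8 of them on U, 6 on heterochromatic names and 3 at the ends of 3L and 3R.

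Longer gaps held a far peak more often, while the density of far peaks within them changed little. A far peak was present in 2.91% of the 412 gaps of 10 to 20 kb, in 19.8% of the 353 gaps of 20 to 40 kb, in 43.2% of the 296 gaps of 40 to 80 kb, in 61.6% of the 224 gaps of 80 to 160 kb and in 89.7% of the 213 longer gaps. Per Mb of usable sequence, these classes held 6.65 far peaks (3.44 to 11.6), 11.4 (8.97 to 14.3), 13.0 (11.2 to 15.0), 10.6 (9.35 to 12.1) and 10.4 (9.56 to 11.3). The lowest value rests on 12 peaks in 1.80 Mb, and its interval overlaps those of the other classes.

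Far peaks often shared a gap, and gaps that held more of them tended to be longer. A single far peak stood in 282 gaps, 138 gaps held 2, and 119 held 3 or more. The 257 gaps with at least 2 held 793 of the 1075 far peaks that had a flanking H2A.V region on each side (73.8%), and the 36 gaps with at least 5 held 238 (22.1%). These 36 were spread over the arms, with 9 on X, 8 on 3L, 7 on 2L, 6 on 2R and 6 on 3R. The median gap length was 66.4 kb for gaps with 1 far peak, 132.9 kb for those with 2 and 164 kb for those with 3. The 213 gaps over 160 kb held 559 of the 1075 far peaks and 53.7 of the 99.3 Mb of usable sequence. Whether far peaks shared gaps more often than the gap lengths alone would give was not tested.

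**Figure D2:**
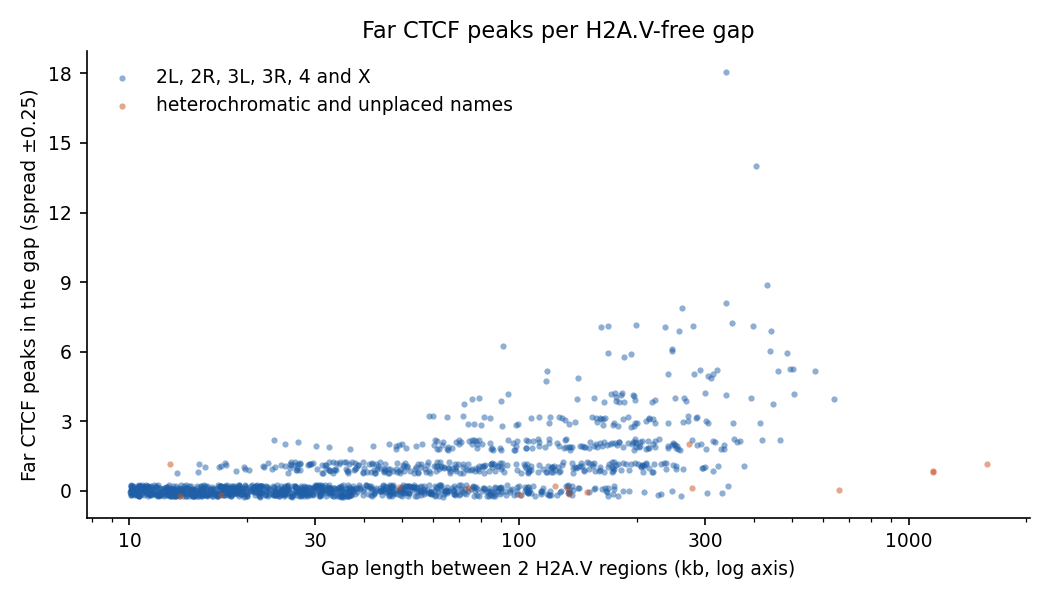
Number of far CTCF peaks (spread by up to 0.25 to separate points) against gap length in kb (log axis) for the 1498 H2A.V-free gaps over 10 kb, on named arms (blue) and on heterochromatic and unplaced names (orange). The 2 gaps of 3R with 18 and 14 far peaks stand above all others, and gaps of over 1000 kb on heterochromatic names held 1 each.

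Within gaps, the central 50% of the usable sequence held slightly under 50% of the far peaks. It held 504 of 1075 (46.9%, Wilson interval 43.9 to 49.9%), an interval that ends just below 50%. This split does not show how evenly peaks were placed at a finer scale. When peaks had to be over 10000 bp from an edge, the central 50% held 49.7%.

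The share of flanking H2A.V regions with CTCF was similar over all gaps with and without a far peak, but varied in both directions with gap length. A near CTCF peak lay in the flanking region or within 1 kb of its edge towards the gap for 396 of 1078 flanks of gaps with a far peak (36.7%, 33.9 to 39.7%), and for 696 of 1918 flanks of gaps over 10 kb without one (36.3%, 34.2 to 38.5%). In gaps of 20 to 40 kb the shares were 31.4% with a far peak (24.3 to 39.5%) and 41.5% without (37.5 to 45.6%), and in gaps of 40 to 80 kb they were 39.8% (34.0 to 45.9%) and 34.8% (29.9 to 40.1%). Some flanks bound a gap on each side and were counted for both. Flanking regions had a median width of 1158 bp for gaps with a far peak and 1297 bp for gaps without. Both comparisons were chosen after the data were seen and were not tested.

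Both gaps richest in far CTCF peaks lie on 3R, in the stretches where, as background knowledge of dm3, the 2 Hox gene complexes of the fly are found. Hox genes encode homeodomain transcription factors that set segment identity, and CTCF is known to bind boundary elements of the bithorax complex that separate its segment-specific regulatory domains. No dm3 annotation was used here, so no peak is assigned to a gene. The gap from 12478127 to 12817117, over the bithorax complex, was 338991 bp long and held 18 far peaks and 1 further CTCF peak under 5000 bp from an edge. The gap from 2486612 to 2891958, over the Antennapedia complex, was 405347 bp long and held 14 far peaks. Together they held 32 far peaks, or 2.93% of all, on 0.729% of the usable sequence.

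The density in these stretches was 54.7 far peaks per Mb of usable sequence in the bithorax gap (32.4 to 86.5) and 35.4 in the Antennapedia gap (19.4 to 59.4). The other gaps together held 10.6 per Mb (9.94 to 11.2). Leaving aside U and the heterochromatic names, 44 gaps were over 300 kb long, with a median of 8.81 far peaks per Mb and 3.5 far peaks per gap, and the 2 gaps had the highest densities of the 44. Among the 36 gaps of any length with at least 5 far peaks, 1 was denser than the bithorax gap and 9 were denser than the Antennapedia gap. The densest was on 2R from 10299122 to 10390221, with 6 far peaks in 81100 bp of usable sequence, or 74.0 per Mb (27.2 to 161). The 2 Hox gaps were singled out for their counts, so the contrast is a description.

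In the bithorax gap, the first 78425 bp from the left H2A.V edge held no far peak, and the 18 then followed one another up to 13188 bp from the right edge. Of the 17 spacings between neighbours, 16 lay between 8380 and 22943 bp, with a median of 15465 bp over all 17. The exception was the pair 3R-456 (12724174 to 12724374) and 3R-490 (12725150 to 12725350), 976 bp apart. The third line of the deposited list, 3R-1 (12624514 to 12624714), stood in the middle of this gap at 146488 bp from the nearest H2A.V edge. In the Antennapedia gap, spacings were less even, from 2526 to 58368 bp with a median of 22654 bp, and 3 pairs lay within 5 kb. Among the first 1230 of the 2459 lines of the CTCF list were 12 of the 18 and 13 of the 14 peaks. Of all far peaks, 668 of 1092 (61.2%) were among these lines, and the difference was not tested.

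**Figure D3:**
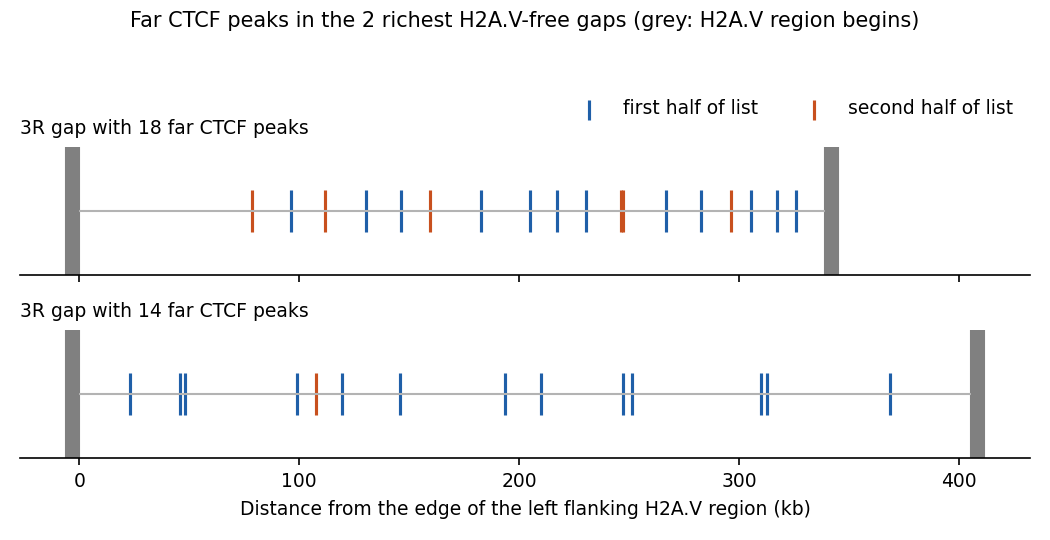
Far CTCF peaks (vertical marks) by distance in kb from the edge of the left flanking H2A.V region in the 2 richest gaps, with the start of each flanking region in grey. Blue marks are peaks among the first 1230 lines of the deposited list (12 of 18 and 13 of 14, beside 61.2% of all far peaks). Orange marks are later lines, and the upper gap, over the bithorax complex, shows 16 of 17 spacings between 8380 and 22943 bp.

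The next richest gaps were on X and 3L. The gap of X from 2634707 to 3066486 held 9 far peaks (21.3 per Mb), that of 3L from 14065490 to 14403623 held 8 (24.4 per Mb), and that of X from 3566381 to 3828345 held 8 (31.8 per Mb). The 3L gap contained the first line of the deposited list, 3L-1 (14104620 to 14104820), 39230.5 bp from H2A.V. Of the first 4 lines of the list, 3 were far peaks, the others being 3R-1 and 2L-1 (2L, 20120918 to 20121118), which stood 22840.5 bp from H2A.V.

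The longest gaps were not the richest. The 3 longest lay on heterochromatic names, on 3LHet from 606804 to 2190207 (1583404 bp), on 2RHet from 1624273 to 2774653 (1150381 bp) and on 2RHet from 473103 to 1621764 (1148662 bp), and held 1 far peak each. The fourth, on U from 1179545 to 1840782 (661238 bp), held none. The fifth, on 2L from 14363231 to 15005584 (642354 bp), held 4 far peaks, 2L-3 among them. Among gaps with no CTCF peak at all, the longest after that on U were on 3L from 24224999 to 24528347 (303349 bp) and on 2RHet from 2901688 to 3178719 (277032 bp).

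On the 5 large arms, far peaks made up between 41.2% of the CTCF peaks of 2R (183 of 444, 36.7 to 45.9%) and 50.1% of those of 3L (237 of 473, 45.6 to 54.6%). The share was 46.3% on 2L (189 of 408), 42.3% on 3R (236 of 558) and 42.5% on X (215 of 506). Per Mb of usable sequence, the arms ranged from 10.3 on 2L (8.85 to 11.8) to 12.2 on X (10.6 to 13.9) and 12.2 on 3L (10.7 to 13.8), so neighbours in that order did not differ beyond their intervals. On 2L, 2R, 3L and 3R together, near peaks occurred at 105 per Mb within 1 kb of a region or inside it (98.7 to 112), against 11.2 far peaks per usable Mb (10.4 to 12.0). Of far peaks 19.7% lay on X, and of near peaks 20.1%, a difference of −0.395 percentage points (95% interval −3.66 to 2.89) that did not pass Fisher's exact test (two-sided, p = 0.834, Benjamini-Hochberg adjusted p = 0.834).

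Chromosome 4, which is small and largely packaged like heterochromatin, had 12 far peaks among 35 CTCF peaks (34.3%, 20.8 to 50.8%) in 6 gaps. Its density was 16.7 per usable Mb (8.62 to 29.1), with an interval that includes the value of every large arm. The heterochromatic names and U together had 20 far peaks among 31 CTCF peaks. Their gaps with a flank on each side held 6 far peaks in 5.74 Mb of usable sequence, 1.05 per Mb (0.384 to 2.28), below the interval of each large arm. This density leaves out 8 far peaks on U and 6 on heterochromatic names that lay beyond the first or last H2A.V region. How much of the sequence on these names could yield a listed peak was not examined. Near peaks on these names occurred at 110 per Mb (52.8 to 203), close to the 105 of the autosomal arms, from 10 peaks in 0.0908 Mb.

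Far peaks were more widely spaced from other CTCF peaks than near peaks were. The nearest other CTCF midpoint lay at a median of 19669 bp from a far peak (quartiles 9400 and 38859 bp) and of 14376 bp from a near peak (6609 and 27112 bp). Another CTCF peak stood within 5 kb of 112 far peaks (10.3%, 8.59 to 12.2%) and of 205 near peaks (17.2%, 15.1 to 19.4%), and within 1 kb of 34 far (3.11%, 2.24 to 4.32%) and 42 near peaks (3.51%, 2.61 to 4.72%). A neighbour within 5 kb of a far peak cannot lie inside an H2A.V region, where CTCF peaks were densest, so the rule itself bears on this contrast and it is given as a description. Among the first 1230 lines of the list the shares within 5 kb were 13.3% and 16.5%, and among the last 1229 lines 5.42% and 17.6%. For 663 of the 1092 far peaks (60.7%) the nearest CTCF peak was itself far. Likewise, for 785 of the 1195 near peaks (65.7%) the nearest CTCF peak was itself near. Far peaks were 44.4% and near peaks 48.6% of all CTCF peaks, and the distance rule bears on both shares.

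Between neighbouring far peaks of one gap there were 536 spacings with a median of 26609 bp (quartiles 11762 and 56015 bp), and 54 of them (10.1%) were under 5 kb. Around far peaks on the 5 large arms, other far peaks were most dense at 0.4 to 1 kb. The shortest classes rest on few pairs, and no interval was computed for these densities. At 0.4 to 1 kb from a far peak there were 25.4 others per Mb of usable sequence (16 pairs), 2.23 times the mean of 11.4 per Mb. At 1 to 2 kb the value was 5.79 per Mb (6 pairs) and at 2 to 5 kb it was 9.96 (30 pairs). It was 15.2 at 5 to 10 kb (72 pairs) and 13.4 at 50 to 100 kb (298 pairs). Without both Hox gaps, the value at 50 to 100 kb was 11.1 per Mb, level with the mean of 11.1 there, and that at 0.4 to 1 kb was 24.6. Per the file headers, peaks under 400 bp apart were not reported and a peak had to exceed the signal of the surrounding 10000 bp by 4-fold. How these rules act on the short spacings was not tested.

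**Figure D4:**
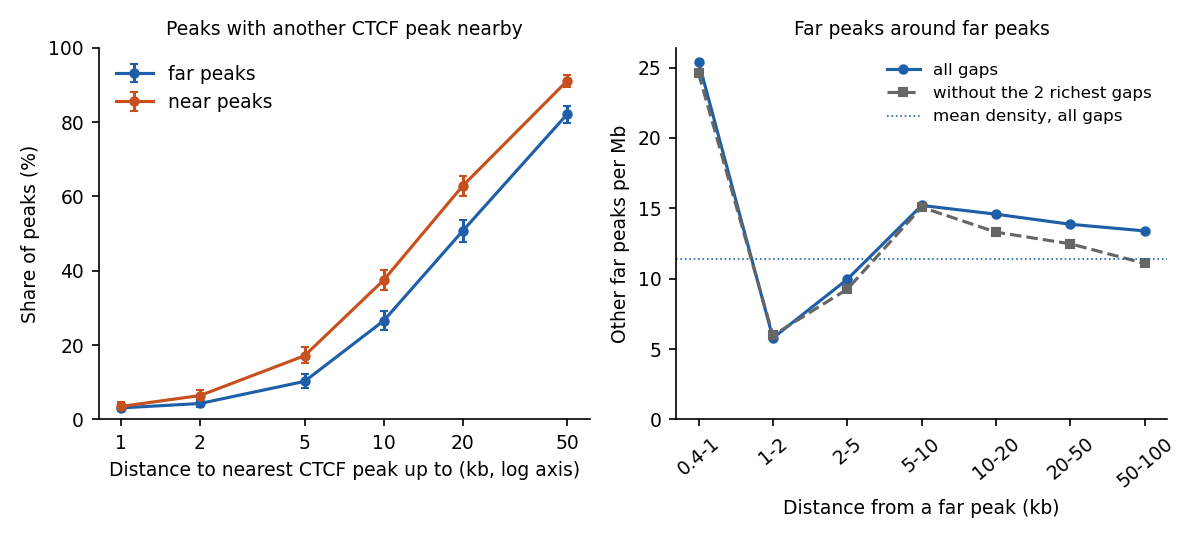
Left, share of far (blue) and near (orange) CTCF peaks with another CTCF peak within 1 to 50 kb (log axis), with 95% Wilson intervals. Right, other far peaks per Mb of usable sequence by distance in kb from a far peak on the 5 large arms, with (blue) and without (grey) the 2 richest gaps. With all gaps, the value was highest at 0.4 to 1 kb (25.4, 16 pairs) and lowest at 1 to 2 kb (5.79, 6 pairs), beside a mean of 11.4. No intervals were computed for the right panel.

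The closest pair of far peaks was 4-9 and 4-10 on chromosome 4 (1133549 to 1133749 and 1134047 to 1134247), with midpoints 498 bp apart. The next were 3R-234 and 3R-161 (22976697 to 22976897 and 22977217 to 22977417), 520 bp apart, and 3R-26 and 3R-17 (13442397 to 13442597 and 13442963 to 13443163), 566 bp apart. On the 5 large arms, the share of far peaks with a CTCF neighbour within 5 kb was 6.08% at 5 to 10 kb from H2A.V (9 of 148), 8.26% at 10 to 20 kb (18 of 218), 11.9% at 20 to 50 kb (40 of 336) and 15.7% at 50 to 100 kb (37 of 235, 11.6 to 20.9%). It was 3.25% over 100 kb away (4 of 123, 1.27 to 8.06%), an interval below that of the class before it. This order was seen after the fact and was not tested.

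Far peaks stood earlier in the deposited CTCF list than near peaks. Of far peaks, 668 of 1092 (61.2%, 58.2 to 64.0%) were among the first 1230 lines, against 468 of 1195 near peaks (39.2%, 36.4 to 42.0%), a difference of 22.0 percentage points (18.0 to 26.0). The odds ratio was 2.45 and Fisher's exact test, two-sided, gave p = 5.39e-26 and an adjusted p of 1.62e-25. The share was higher for far peaks on each of the 5 large arms, from 48.4% against 34.6% on X to 69.9% against 37.6% on 3R. Over 10 equal parts of the list, far peaks made up 64.5% of the first (58.3 to 70.2%), 27.6% of the seventh (22.4 to 33.5%) and 49.2% of the last (43.0 to 55.4%), in which 120 of the 246 peaks were on X. Among far peaks of the 5 large arms, the share in the first 1230 lines was 56.8% at 5 to 10 kb from H2A.V (48.7 to 64.5%) and 66.7% over 100 kb away (57.9 to 74.4%), with overlapping intervals. What the order of lines records is not given in the files, and a link between this order and H2A.V overlap was known from earlier results on the same lists, so the test is not independent support for it.

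**Figure D5:**
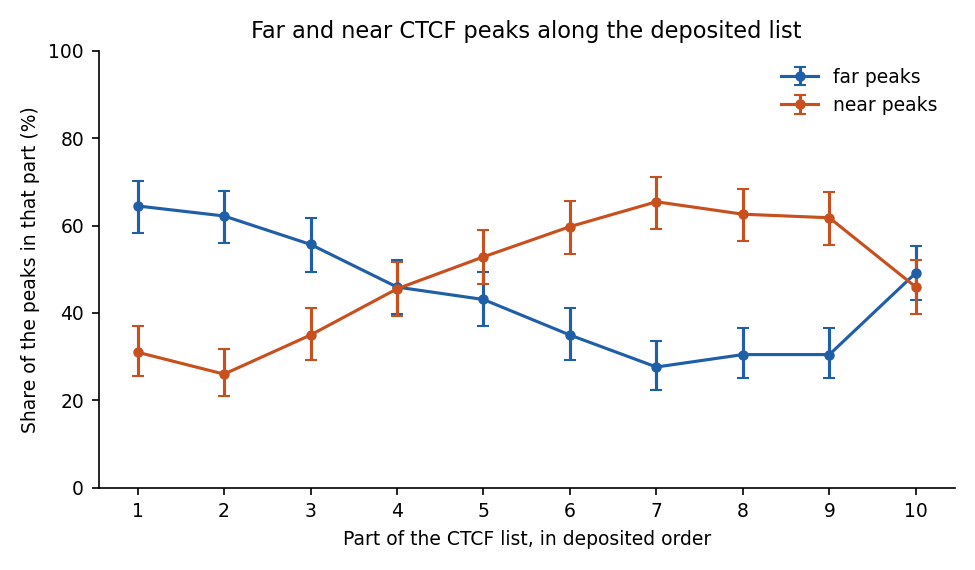
Share of far (blue) and near (orange) CTCF peaks among the peaks of each of 10 equal parts of the CTCF list in deposited order, with 95% Wilson intervals. Far peaks made up 64.5% of the first part, 27.6% of the seventh and 49.2% of the last.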

How the data were processed

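The submitters' processing notes name Bowtie 1.1.1, HOMER (version not given in the sources used here) and the genome build dm3. Both deposited lists give only the start and end of each region in bp, since the authors' score column is 1 and the strand column a plus in every line. Per the file headers, CTCF peaks of 201 bp were called in factor style against the input, with at least 37 tags, a 4-fold excess over input and over the surrounding 10000 bp, and 15117 of 18141 putative peaks removed against the input. H2A.V regions were called in histone style from 500 bp windows stitched into regions, with at least 67 tags per window and a 4-fold excess over input.

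Distances run from CTCF midpoints to H2A.V edges, and coordinates are dm3, counted from 1. Densities divide counts by the sequence available at each distance between the first and last H2A.V region. Fisher's exact tests compared far with near peaks for X linkage, neighbours and list order, with Benjamini-Hochberg adjustment over the 3. The p-value for neighbours is not reported because the rule constrains it. Peaks in 1 gap are neighbours and not independent, so p-values are descriptive of these lists. Steps were tested on simulated lists. The members, the comparisons and the rule for named regions (richest, longest and CTCF-free gaps, farthest, first-listed and closest peaks) were chosen with earlier results of these data known. Tests of motifs and start sites and the printing of peak sequences need a dm3 genome, which was not used here. Python 3.11.15, NumPy 2.4.6, pandas 2.3.3, SciPy 1.17.1 and matplotlib 3.10.9 were used.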

Additional observations from a re-analysis of the deposited data

How the results depend on the processing

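The number of far peaks was 719 at a distance limit of 20 kb and between 855 and 1219 under the 8 other alternatives, against 1092. The earlier place of far peaks in the list kept its direction and passed Fisher's exact test under all 14 alternatives (log2 odds ratio 1.11 to 1.63, against 1.29). These alternatives reuse mostly the same peaks, and the pattern was known beforehand, so the passes are no independent support. The log2 odds ratio for a neighbour within 5 kb was −0.86 and ranged from −1.90 to −0.36 over 17 alternatives, with −0.36 among the first 1230 lines of the list alone. The rule that chose the far peaks favours this direction, so the range is no sign of stability. That division and the omission of the 2 richest gaps were added after seeing the data. The X share was near 0 at −0.036 on the log2 scale and did not pass under any alternative (adjusted p from 0.124 to 1). It changed sign at limits of 2 kb (0.081), 10 kb (0.021) and 20 kb (0.057), without the narrowest H2A.V regions (0.20), against peaks overlapping a region (0.25), without 3L (0.062), without the 2 richest gaps (0.018) and among the last 1229 lines (0.36). The central 50% of gaps held 47.1 and 49.7% under its 2 alternatives. No paired analysis was possible because there was 1 library for each antibody. The alternatives for motifs and start sites were not run. CTCF sites under 37 tags, H2A.V windows under 67, and sites under a 4-fold excess over input or, for CTCF, over local signal, are not listed.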
